A study of Mus musculus with 24 samples.

Results

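The genes described here encode the presynaptic machinery that stores, docks, fuses and recycles neurotransmitter vesicles. They are a list of 35 mouse genes named by symbol, and all 35 were found among the 18240 genes measured. They were measured by bulk RNA sequencing of prefrontal cortex from C57BL/6J mice at postnatal day 40, in 24 libraries. Mice were wild type (WT) or carried 1 altered copy of the kinase gene Dyrk1a, written Dyrk1a+/I48X and abbreviated HT. The 4 arms were WT vehicle, HT vehicle, HT fluoxetine and HT lithium, each with 3 female and 3 male libraries. Fluoxetine is a serotonin reuptake inhibitor and lithium a mood stabiliser. The sources used here do not give drug doses, routes or durations. No drug-treated WT arm is among the samples analysed here, so drug effects were measured in HT mice only. Nothing in the labels says whether each library came from a separate animal, so p-values measure the spread between these libraries. Dyrk1a counts are summed over both alleles and cannot check the genotype label. Dyrk1a itself measured 2200 ± 90.8 normalised counts in WT vehicle and 2355 ± 61.2 in HT vehicle (SD, n = 6 each; log2 difference 0.10 ± 0.04 SE, limma adjusted p = 1).

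At a resting synapse, transporters fill vesicles with glutamate or GABA, synapsins tether a reserve pool, and Rab3 proteins with active zone scaffolds dock vesicles at the membrane. Calcium entry is sensed by synaptotagmins, and the SNARE proteins on vesicle and plasma membrane then zip together and fuse the membranes. The vesicle membrane is afterwards retrieved by endocytosis. Cortical excitatory neurons load glutamate mainly with the transporter Slc17a7 (VGLUT1), most subcortical glutamate neurons use Slc17a6 (VGLUT2), and inhibitory neurons use Slc32a1 (VGAT).

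The start regions of these 3 transporters are shown because the transporters moved in opposite directions across libraries, as described further on. Each is the 250 bases before the RefSeq gene start in GRCm38.p6, on the plus strand and 5′ to 3′. They lie at chr7:45163671-45163920 for Slc17a7, chr7:51621580-51621829 for Slc17a6 and chr2:158610508-158610757 for Slc32a1. Capitals mark GC boxes (GGGCGG, or CCGCCC where the box is on the other strand), short GC-rich motifs that transcription factors of the Sp family are known to bind.
Slc17a7: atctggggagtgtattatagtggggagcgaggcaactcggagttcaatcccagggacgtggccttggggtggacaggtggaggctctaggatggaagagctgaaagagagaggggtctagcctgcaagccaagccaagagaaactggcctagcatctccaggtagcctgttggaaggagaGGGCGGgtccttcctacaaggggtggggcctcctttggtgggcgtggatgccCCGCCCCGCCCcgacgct
Slc17a6: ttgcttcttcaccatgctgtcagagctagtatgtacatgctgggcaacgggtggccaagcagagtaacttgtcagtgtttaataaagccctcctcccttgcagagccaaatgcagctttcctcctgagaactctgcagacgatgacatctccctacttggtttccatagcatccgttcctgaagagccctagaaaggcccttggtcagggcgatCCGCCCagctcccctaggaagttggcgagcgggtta
Slc32a1: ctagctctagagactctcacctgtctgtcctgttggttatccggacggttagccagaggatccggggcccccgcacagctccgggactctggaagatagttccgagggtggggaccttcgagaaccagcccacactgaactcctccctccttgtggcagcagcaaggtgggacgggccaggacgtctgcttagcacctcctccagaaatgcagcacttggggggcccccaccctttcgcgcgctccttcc
Slc17a7 held 3 GC boxes, of which a pair overlap on the minus strand, Slc17a6 held 1, and Slc32a1 held 0. Such windows were found for 31 of the 35 members. A gene with several RefSeq starts was counted if any of its windows held the motif. All genes were counted in the same way, without matching the number of starts or the expression level. A GC box was present in 21 of those 31 (67.7%), against 35.4% of the 27025 genes with such a window. A TATA box (TATAAA) was in 2 of 31 (6.45%), Sv2b and Rab3b, against 14.3% of all genes. The cyclic AMP response element TGACGTCA was in 1 of 31 (3.23%), Syn1, against 1.77% of all genes. Both strands were searched, and a match describes letters only. A GC box was in 2 of the 3 members described further on as rising with bulb markers (66.7%) and in 16 of 24 falling members that had a window (66.7%).

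Levels were compared per kilobase of exon (GENCODE annotation of GRCm38, all exons of a gene merged), and gene coordinates below are from the same annotation. On this scale the members spanned from 37.9 normalised counts per kb (mean of 24 libraries) for Syn3 to 10135 for Snap25. Snap25, the plasma membrane SNARE, exceeded the next gene, Slc17a7 at 8134 per kb, in 24 of 24 libraries. Slc17a7 and the fusion clamp Cplx1 (7496 per kb) were not separated, Slc17a7 being higher in 17 of 24 libraries. The vesicle SNARE Vamp2 (7405 per kb) was likewise not separated from Cplx1, which was higher in 13 of 24, nor from the vesicle membrane protein Syp (7172 per kb), with Vamp2 higher in 12 of 24. Dnm1, the neuronal dynamin that pinches off endocytic vesicles, followed at 6978 per kb and the vesicle GTPase Rab3a at 6615 per kb.

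Within families a high member usually had much lower relatives. The fast calcium sensor Syt1 stood at 5689 per kb and Syt2, which serves the same role in fast-spiking and hindbrain neurons, at 109. Syn1 stood at 4973 per kb, Syn2 at 2074 and Syn3 at 37.9. Of the Munc13 priming factors Unc13a reached 1312 per kb, Unc13b 114 and Unc13c 75.2. Rab3a exceeded Rab3c at 1017 per kb and Rab3b at 472. Rims1 stood at 1052 per kb and Rims2 at 302.2, with the large active zone scaffolds Bsn at 1137 and Pclo at 486. Complexins Cplx2 and Cplx3 stood at 5746 and 106 per kb. Among transporters Slc32a1 reached 1026 per kb and Slc17a6 89.0. The Slc17a6 level was 0.668% to 2.42% of the Slc17a7 level across libraries, with a median of 0.900%. For Slc32a1 against Slc17a7 the ratio ran from 6.68% to 30.5%, with a median of 10.1%.

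Reads recovered from the deposited values and summed over the genes measured were 24133344 to 35940460 per library. The tissue label was checked against cell type markers. The 8 genes of cortical excitatory neurons summed to 65584 or more normalised counts in every library. The 6 genes of olfactory bulb mitral and tufted neurons summed to 466 to 14968 in WT vehicle, 327 to 13462 in HT vehicle, 400 to 18317 in HT fluoxetine and 114 to 15677 in HT lithium. Some of these genes were at 0 in some library of an arm, not necessarily in the same library. They were Barhl2 and Lhx5 in WT vehicle, and Barhl2, Lhx5 and Eomes in HT vehicle. In each drug arm they were Tbx21 and Lhx5. Cdhr1, a marker of those bulb neurons, ran from 36.9 to 8456 normalised counts, Doc2g from 54.4 to 6972 and Eomes from 0 to 2136. The mean log2(value + 1) of these 3 genes is called the bulb score here. It ran from 4.19 in HT lithium female 2 to 12.29 in HT fluoxetine male 1. The 6 libraries above 11 were WT vehicle female 2, HT vehicle female 2 and male 3, HT fluoxetine female 1 and male 1, and HT lithium male 1, called bulb-rich here. The score was 9.30 ± 2.04 in WT vehicle, 8.15 ± 2.96 in HT vehicle, 9.23 ± 2.83 in HT fluoxetine and 8.31 ± 2.88 in HT lithium (SD, n = 6). An exact two-sided permutation test gave p = 0.455 for HT against WT vehicle, 0.515 for fluoxetine and 0.909 for lithium against HT vehicle. The striatal marker Drd2 reached 1379 in HT vehicle male 1, and Ttr of choroid plexus reached 3407 in HT vehicle female 1. In bulk tissue, fewer cells of a type and less RNA per cell cannot be told apart.

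The levels of most members followed the bulb score, while no difference between arms was called for any member. The lowest of the 24 values of a member fell in one of the 6 bulb-rich libraries for 29 of 35 members, 16 of them in HT fluoxetine male 1 and 10 in HT lithium male 1. For 20 of 35 members each of those 6 libraries lay below every other library, where 9.92% of all 16822 genes tested did so. For 1 member, Rab3b, each lay above every other library (8.45% of all genes). The highest value of 11 members fell in HT fluoxetine male 2, in which the scaffold Pclo (6728 normalised counts) was instead at its lowest. Where the lowest and highest values of all genes fell was not counted. These counts of lowest and highest values therefore have no share of all genes to be read against.

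**Figure D1:**
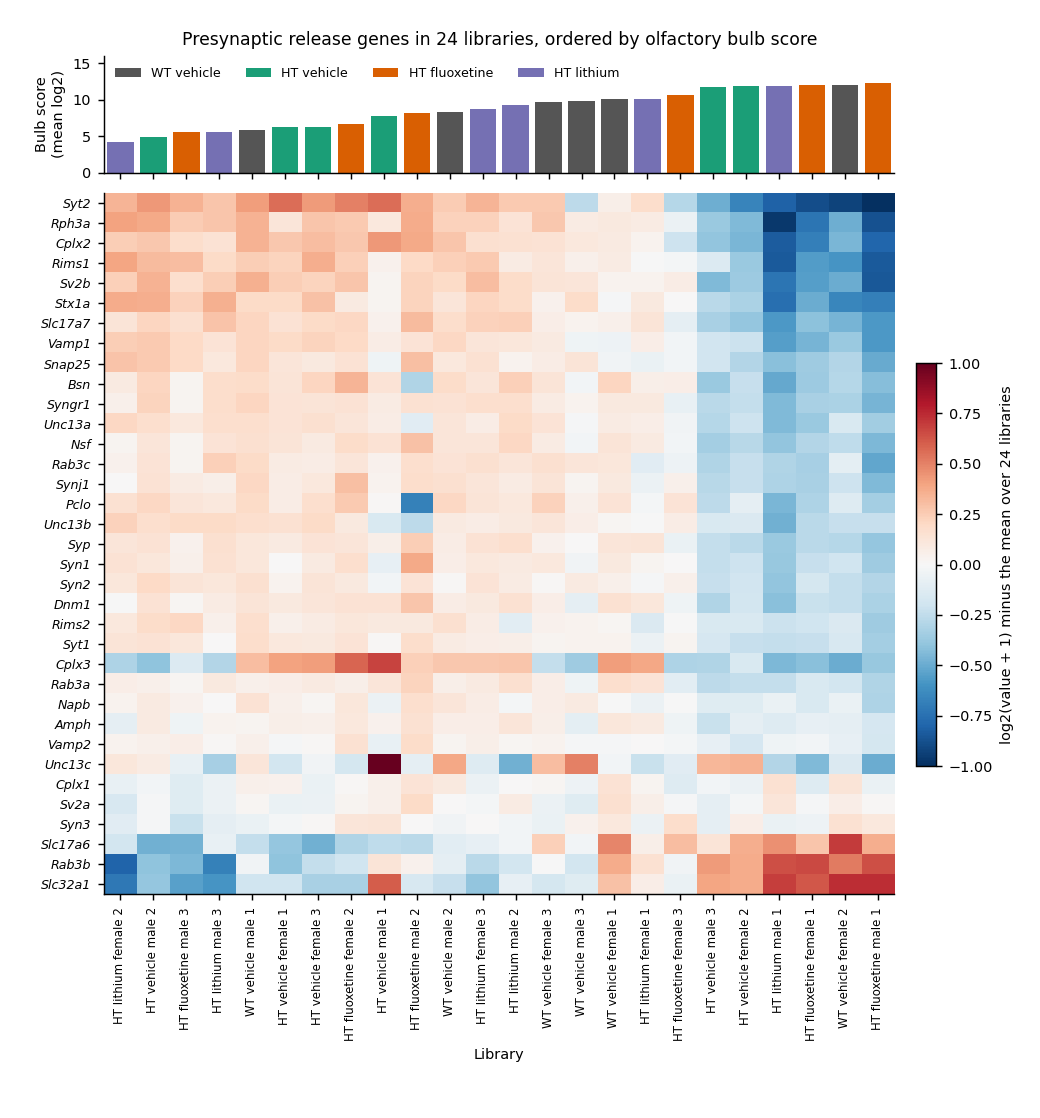
Heat map of the 35 members (rows) in the 24 libraries (columns, ordered by rising bulb score), as log2(value + 1) minus the gene's mean over libraries, with the bulb score of each library as bars coloured by arm. The 6 columns on the right, with scores above 11, are low for most genes and high for Slc17a6, Rab3b and Slc32a1, and each of the 4 arms has libraries on both sides of the order.

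The bulb score was tested as a term added to the 8 group means (arm by sex) in limma, so that each value below is a log2 change per unit of the score within groups. Of 35 members, 30 changed with the score at an adjusted p below 0.05, 27 of them falling and 3 rising. Over all 16822 genes the shares were 50.7% called, 25.5% falling and 25.2% rising. The median slope was -0.058 for the members and 0.001 for all genes. The 3 members that rose were Slc17a6, Slc32a1 and Rab3b. The same count of 30 members was called by edgeR (50.8% of genes) and by DESeq2 (50.3%) on the recovered reads.

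**Figure D2:**
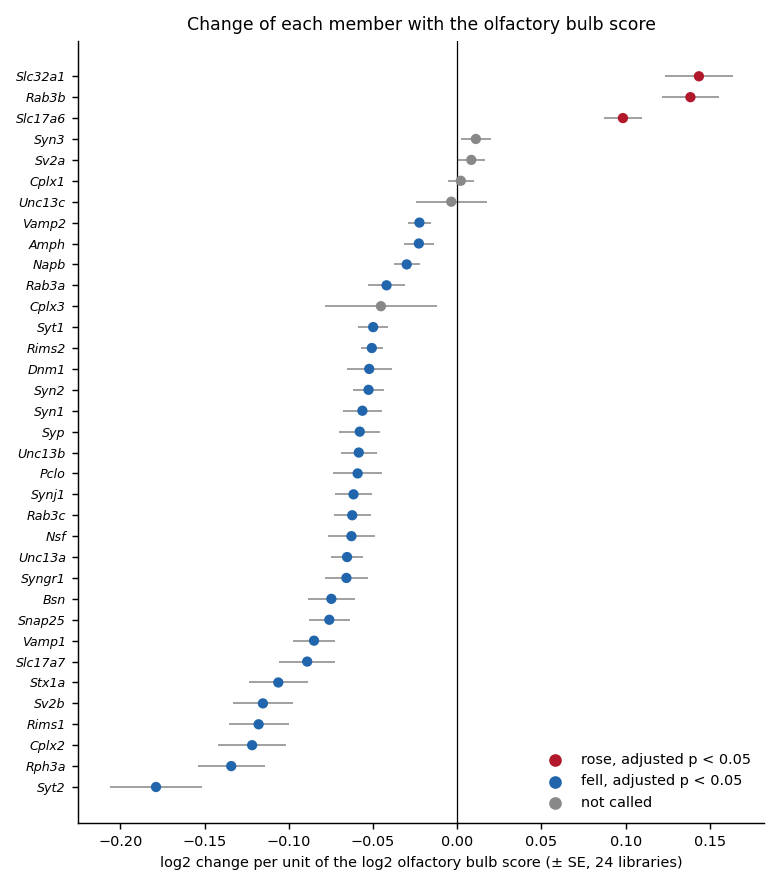
Slope of each member against the bulb score, as log2 change per unit of score with its SE from 24 libraries. Blue genes fell, red genes rose and grey genes were not called, with Syt2 at -0.18 and Slc32a1 at 0.14 as the extremes.

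The 3 vesicular transporters did not move together. Slc17a7 (ENSMUSG00000070570, chr7:45163949-45176142 in GRCm38) measured 47147 normalised counts in HT lithium female 2, the library with the lowest score, and 28907 in HT fluoxetine male 1, with the highest. Its slope was -0.089 ± 0.017 (SE, limma adjusted p = 0.00022). Slc17a6 (ENSMUSG00000030500, chr7:51622006-51671119) measured 411.8 and 601.2 in the same 2 libraries. Its slope was 0.098 ± 0.011 (limma adjusted p = 2.8e-06). Slc32a1 (ENSMUSG00000037771, chr2:158610767-158615748) measured 1671 and 4578, with a slope of 0.14 ± 0.020 (limma adjusted p = 2.0e-05). Thus the glutamate transporter typical of cortex fell while the other glutamate transporter and the GABA transporter rose. Of the marker lists, 6 of 6 genes of bulb interneurons rose (Synpr among them is also a vesicle gene). In the list of cortical excitatory neurons 8 of 8 genes fell. Over all genes 25.2% were called as rising and 25.5% as falling. Other marker lists, that of inhibitory neurons among them, are not described against the score here. The part of bulb and cortical cells in the member values was not tested.

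The SNARE proteins and the factors that take them apart all fell, 6 of 6. Stx1a, a plasma membrane SNARE, had a slope of -0.11 ± 0.017 and ranged from 5294 to 11554 normalised counts, with a median of 9643 over 24 libraries. Vamp1 fell with a slope of -0.085 and Snap25 with -0.076. Snap25 measured 82807 normalised counts at the lowest score and 48078 at the highest. Nsf, the ATPase that disassembles spent SNARE complexes, fell with a slope of -0.063 and its adaptor Napb with -0.030. Vamp2 had the smallest slope of the group, -0.022 (limma adjusted p = 0.012), and its highest library was only 1.29 times its lowest.

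The calcium sensors fell, while the complexins did not move together. Syt2 (ENSMUSG00000026452, chr1:134646677-134762593) had the steepest slope of all members, -0.18 ± 0.028 (limma adjusted p = 4.1e-05). It measured 989.6 normalised counts at the lowest score and 325.3 at the highest, and it varied 3.56-fold over all libraries. Syt1 fell less, with a slope of -0.050, and the Syt2 level per kb was 0.952% to 2.64% of the Syt1 level. Cplx2 fell with a slope of -0.12 ± 0.020, from 32513 normalised counts at the lowest score to 15823 at the highest. Cplx1 was not called, with a slope of 0.002 (limma adjusted p = 0.84), and it measured 15563 and 15681 in those libraries. Cplx3, a complexin of retinal ribbon synapses and some cortical neurons, was not called either (-0.045, limma adjusted p = 0.27).

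In the active zone and priming group 6 of 7 members fell. Rims1, which links Rab3 vesicles to calcium channels, fell with a slope of -0.12 ± 0.018 and Rims2 with -0.051 (limma adjusted p = 9.8e-06). Bsn fell with a slope of -0.075 and Pclo with -0.059. Unc13a fell with a slope of -0.065 and Unc13b with -0.058. Unc13c, known best from cerebellar granule cells, was the exception with a slope of -0.004 (limma adjusted p = 0.90).

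Vesicle membrane proteins fell for 3 of 4 and synapsins for 2 of 3. Sv2b fell with a slope of -0.12 ± 0.018, Syngr1 with -0.066 and Syp with -0.058. Sv2a, the isoform found in most synapses and the target of the antiepileptic drug levetiracetam, was not called (0.008, limma adjusted p = 0.41). Syn1 and Syn2 fell with slopes of -0.056 and -0.053, while Syn3 was not called (0.011, limma adjusted p = 0.31). The 4 least variable members over the 24 libraries had a coefficient of variation of 5.67% for Vamp2, 6.07% for Sv2a, 6.09% for Cplx1 and 6.76% for Syn3.

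Among the Rab3 proteins and their effector, 3 of 4 fell and 1 rose. Rph3a, the Rab3 effector rabphilin, fell with a slope of -0.13 ± 0.020 (limma adjusted p = 3.2e-05), from 18336 normalised counts at the lowest score to 7592 at the highest. Rab3a and Rab3c fell with slopes of -0.042 and -0.062. Rab3b (ENSMUSG00000003411, chr4:108879063-108943324) rose with a slope of 0.14 ± 0.017 (limma adjusted p = 4.2e-06), from 919.5 normalised counts to 2501. The Rab3b level per kb ran from 3.78% to 13.3% of the Rab3a level. All 3 endocytosis genes fell, the lipid phosphatase Synj1 with a slope of -0.062, Dnm1 with -0.052 and Amph with -0.023 (limma adjusted p = 0.036).

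**Figure D3:**
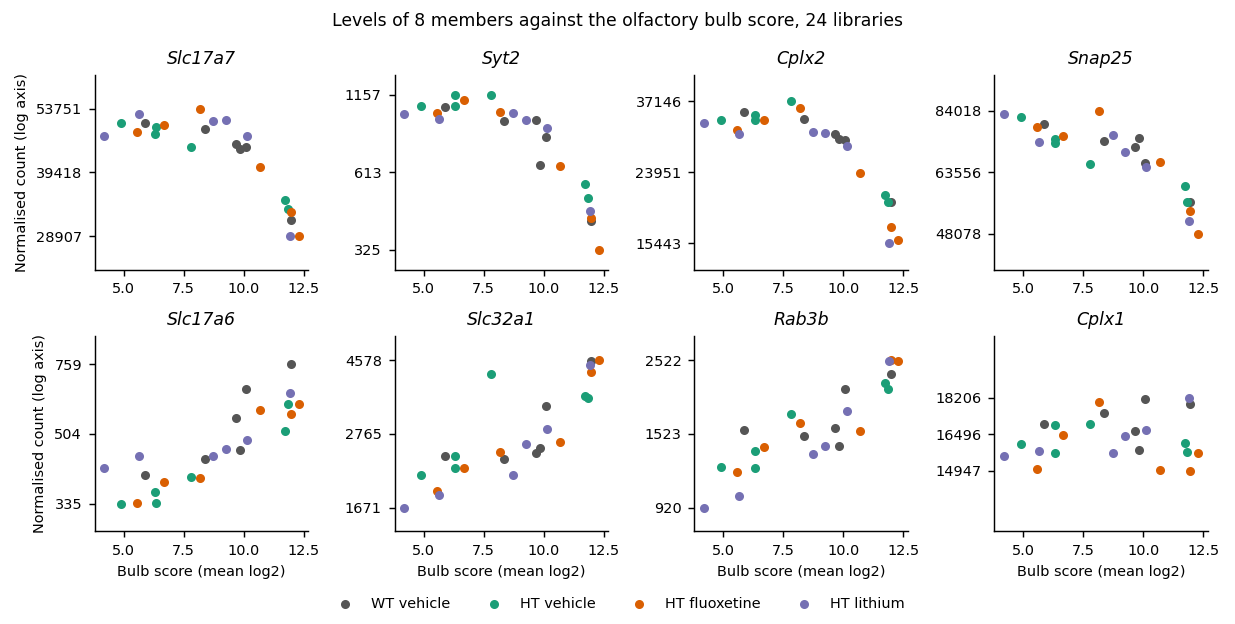
Normalised counts (log axis) of 8 members against the bulb score in 24 libraries, coloured by arm. Slc17a7, Syt2, Cplx2 and Snap25 are low in the libraries with scores above 11, Slc17a6, Slc32a1 and Rab3b are high there, and Cplx1 stays between 14947 and 18206.

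The relation was not a straight line on the log2 score, since slopes were smaller among the libraries with lower scores. There Slc17a7 had a slope of -0.019, against -0.089 over all libraries. Syt2 had -0.063 there, against -0.18 over all libraries, and neither gene was called there. Without the 6 libraries above 11, 7 members were still called (6.23% of all genes), and 15 had an unadjusted p below 0.05 (23.5% of all genes). These 7 were Slc17a6 (0.06), Rab3b (0.11), Slc32a1 (0.12), Rims1 (-0.06), Rims2 (-0.03), Vamp1 (-0.04) and Rph3a (-0.05). Some other members that fell over all libraries had slopes near 0 there and were not called, such as Syp (-0.0075) and Nsf (-5.6e-05). With the score on a linear scale (the mean of the 3 marker counts, each divided by its highest value), 31 members were called (58.8% of all genes). The spread left within groups fell with the score in the fit, since the median residual SD of the members was 0.242 (log2) without it, 0.143 with it and 0.0859 with the linear score. The same medians over all genes were 0.182, 0.141 and 0.119.

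Between HT and WT mice on vehicle no member was called. The test was limma on log2(value + 1) with both sexes weighted equally, and it called 0 of 16825 genes (0%). At an unadjusted p below 0.05 there were 455 genes (2.7%). On the recovered reads edgeR called 0 genes, with 457 below 0.05, and DESeq2 called 0, with 403. Of the 35 members 1, Slc17a6, had an unadjusted p below 0.05. Fold changes were above 0 for 7 members and below 0 for 28, against 48.7% of all genes above 0, and their median was -0.039 (log2) against -0.002 for all genes. With the bulb score in the fit 5 were above and 30 below 0 (50.5% of all genes above), with a median of -0.096. Without the 6 bulb-rich libraries the split turned over, with 23 above and 12 below 0 (50.8% of all genes above) and a median of 0.024. Leaving out single libraries moved the median between -0.0783 and 0.0193, and it was above 0 without HT vehicle female 2 or HT vehicle male 3. The median SE of a member's fold change was 0.133.

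Slc17a6 measured 396.9, 505.8 and 759.3 normalised counts in WT vehicle (lowest, median and highest of 6 libraries). In HT vehicle it measured 334.8, 375.4 and 603. Only 1 of 6 HT libraries lay above the WT mean, and the arms overlapped. The log2 difference was -0.36 ± 0.17 (95% interval -0.713 to -0.00626, unadjusted p = 0.0465, limma adjusted p = 1). With the bulb score it was -0.25 ± 0.08 (limma adjusted p = 0.425) and with the linear score -0.37 ± 0.07 (limma adjusted p = 0.076). Without the 6 bulb-rich libraries it was -0.52 (limma adjusted p = 0.68). The highest Slc17a6 values of both arms, in WT vehicle female 2 and HT vehicle female 2, were in bulb-rich libraries.

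Cplx1 measured 15811, 17216 and 18143 normalised counts in WT vehicle and 15680, 16082 and 16975 in HT vehicle (lowest, median and highest). No HT library exceeded the WT mean, yet the ranges overlapped and the log2 difference of -0.08 ± 0.05 was not called (unadjusted p = 0.167). Rab3c measured 13093 ± 885 in WT vehicle and 11954 ± 1459.6 in HT vehicle (SD, n = 6). Its log2 difference was -0.14 ± 0.12, and -0.21 ± 0.07 with the bulb score (limma adjusted p = 0.451). Napb (-0.08 ± 0.07) and Sv2a (-0.05 ± 0.06) completed the 5 members with the smallest p-values, and neither was called. Leaving out single libraries moved Rab3c between -0.182 and -0.0724 (the latter without HT vehicle male 3) and Sv2a between -0.0738 and -0.0186 (the latter without WT vehicle female 1).

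The abundant core of the machinery showed how much each comparison could resolve. Snap25 measured 55460 to 79028 normalised counts in WT vehicle, with a median of 72401, and 55473 to 81721 in HT vehicle, with a median of 69384. The ranges nearly coincide, and the 95% interval of the log2 difference was -0.342 to 0.263. Slc17a7 measured 31306 to 50067 in WT vehicle (median 44899) and 33042 to 50048 in HT vehicle (median 46013), with an interval of -0.405 to 0.338. Syt1 measured 42315 to 53374 and 40318 to 52044 in the same arms, with an interval of -0.249 to 0.17. The steadier genes gave narrower intervals, such as -0.172 to 0.0827 for Vamp2 and -0.166 to 0.0755 for Sv2a. For Syt2 and Cplx2, which with Rph3a fell most steeply with the bulb score, the intervals were wide at -0.522 to 0.862 and -0.494 to 0.471. A difference of that size in those genes could not be told from none.

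No member was called for fluoxetine against vehicle in HT mice. The limma test called 2 of 16825 genes (0.0119%), edgeR 2 and DESeq2 16. By limma 961 genes (5.71%) had an unadjusted p below 0.05. Of the members only Unc13c had an unadjusted p below 0.05. Fold changes were above 0 for 7 and below 0 for 28 members, against 49.5% of all genes above 0, with a median of -0.038 (log2) against -0.001 for all genes. With the bulb score the split was 19 to 16 (49.2% of all genes above 0) and the median 0.005. Without the 6 bulb-rich libraries it was 10 to 25 (50.6%) and the median -0.021. Leaving out single libraries moved the median between -0.0997 and 0.0397, and it was above 0 without HT fluoxetine female 1 or HT fluoxetine male 1.

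Unc13c (ENSMUSG00000062151, chr9:73479422-73968966) measured 563.1, 741.3 and 1322 normalised counts in HT vehicle (lowest, median and highest of 6). It measured 455.0, 578.7 and 608.9 in HT fluoxetine and 459.6, 535.7 and 693.3 in HT lithium. No library of either drug arm exceeded the HT vehicle mean of 801.2, although the lowest HT vehicle libraries lay within the range of the drug arms. The fluoxetine difference was -0.50 ± 0.14 (log2, 95% interval -0.792 to -0.199, unadjusted p = 0.00244, limma adjusted p = 0.55). Other fits gave -0.53 with edgeR (adjusted p = 0.57), -0.49 with the bulb score (limma adjusted p = 0.317) and -0.53 within batch P40_L1 alone (limma adjusted p = 0.931).

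The lithium difference of Unc13c was -0.49 ± 0.14 (95% interval -0.783 to -0.19, unadjusted p = 0.00281, limma adjusted p = 1). Both drug comparisons share the HT vehicle libraries. HT vehicle male 1, at 1322, is also the library with the highest Drd2. The 8 striatal genes summed to 5174 to 35086 in HT vehicle, 3751 to 12038 in HT fluoxetine and 5181 to 9686 in HT lithium, none of them at 0, and their part in the Unc13c difference was not tested. Leaving out each library in turn gave -0.596 to -0.356 for fluoxetine and -0.588 to -0.347 for lithium, both weakest without HT vehicle male 1. Against WT vehicle, at 579.3, 745.6 and 910.2 normalised counts, Unc13c differed by -0.42 ± 0.14 under fluoxetine (unadjusted p = 0.00756, limma adjusted p = 0.935) and by -0.41 ± 0.14 under lithium (unadjusted p = 0.00869, limma adjusted p = 1). All 6 WT vehicle libraries lay within the range of HT vehicle.

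**Figure D4:**
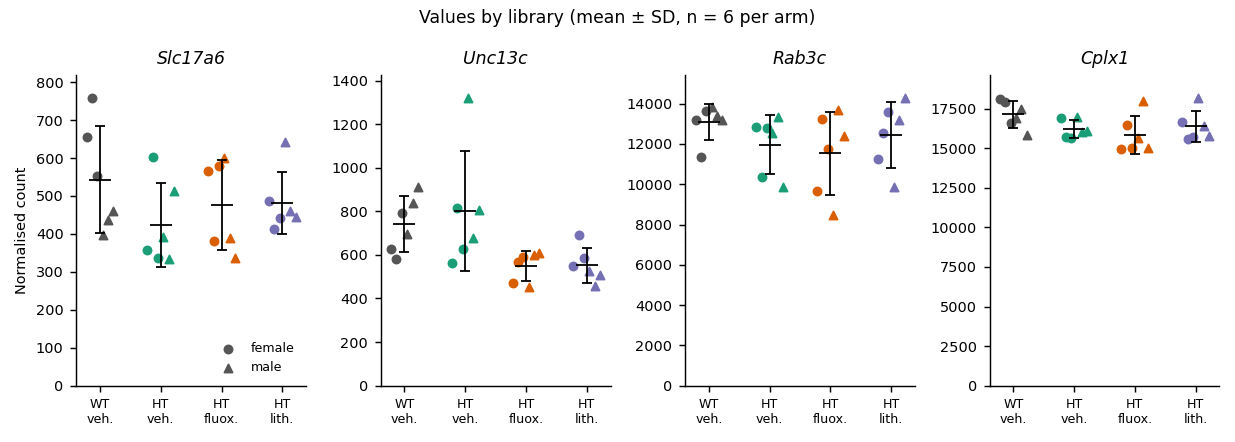
Normalised counts of Slc17a6, Unc13c, Rab3c and Cplx1 in each library by arm, circles for females and triangles for males, with the mean and SD of 6 libraries. Unc13c shows 1 high HT vehicle library at 1322, and every pair of arms overlaps for all 4 genes.

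After Unc13c the members with the smallest p-values under fluoxetine were Vamp2 (0.08 ± 0.06), Pclo (-0.15 ± 0.13), Syt2 (-0.34 ± 0.33) and Slc17a6 (0.17 ± 0.17), and none was called. Leaving out each library in turn moved Pclo between -0.258 and -0.0589 (the latter without HT fluoxetine male 2). It moved Syt2 between -0.533 (without HT vehicle female 2) and -0.0712 (without HT fluoxetine male 1), and Slc17a6 between 0.301 and 0.046 without the same libraries. Pclo measured 6728, 10196 and 12899 normalised counts in HT fluoxetine (lowest, median and highest) and 10973 ± 1283 in HT vehicle (SD, n = 6). Its lowest value was in HT fluoxetine male 2, where the related scaffold Bsn was also low at 14520.1, while both were at their highest in HT fluoxetine female 2. Syt2 measured 325.3, 820.0 and 1110 in HT fluoxetine and 496.4, 1055 and 1157 in HT vehicle, and its low values lay in bulb-rich libraries of both arms. The intervals of the core genes were -0.335 to 0.27 for Snap25, -0.418 to 0.325 for Slc17a7 and -0.151 to 0.0765 for Cplx1.

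No member was called for lithium against vehicle in HT mice either. The limma test called 2 of 16825 genes (0.0119%), edgeR 0 and DESeq2 3. By limma 463 genes (2.75%) had an unadjusted p below 0.05. Unc13c was again the only member with an unadjusted p below 0.05. Fold changes were above 0 for 22 members and below 0 for 13, against 49.5% of all genes above 0, with a median of 0.016 (log2). The split was 24 to 11 with the bulb score (49.6% of all genes above 0) and 14 to 21 without the 6 bulb-rich libraries (49.2%). A batch term turned it to 15 and 20 with a median of -0.052. Leaving out single libraries moved the median between -0.0464 and 0.101, and it was below 0 without HT vehicle female 2, HT vehicle male 3, HT lithium male 2 or HT lithium male 3. All 6 lithium libraries were in batch P40_L2 and all vehicle libraries in P40_L1. A batch term could be fitted only because 1 fluoxetine library was in P40_L2, and lithium and batch cannot be told apart.

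Syn3 measured 429.0, 443.6 and 466.4 normalised counts under lithium (lowest, median and highest) and 469.7 ± 25 in HT vehicle (SD, n = 6). No lithium library exceeded the vehicle mean, and the difference of -0.07 ± 0.06 was not called (unadjusted p = 0.231). Slc17a6 measured 411.8, 452.2 and 641.6 under lithium, with 5 of 6 libraries above the HT vehicle mean of 422.8. The difference was 0.21 ± 0.17 (unadjusted p = 0.232), and with the batch term it was -0.109. Slc32a1 measured 2575 ± 1016 under lithium and 2993 ± 879 in HT vehicle, a difference of -0.25 ± 0.26, and Vamp2 differed by 0.06 ± 0.06. Leaving out single libraries moved Slc17a6 between 0.124 (without HT lithium male 1) and 0.341 (without HT vehicle female 2). It moved Slc32a1 between -0.418 (without HT lithium male 1) and -0.0966 (without HT lithium male 3). The intervals of the core genes were -0.28 to 0.325 for Snap25, -0.281 to 0.462 for Slc17a7 and -0.0695 to 0.185 for Vamp2.

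**Figure D5:**
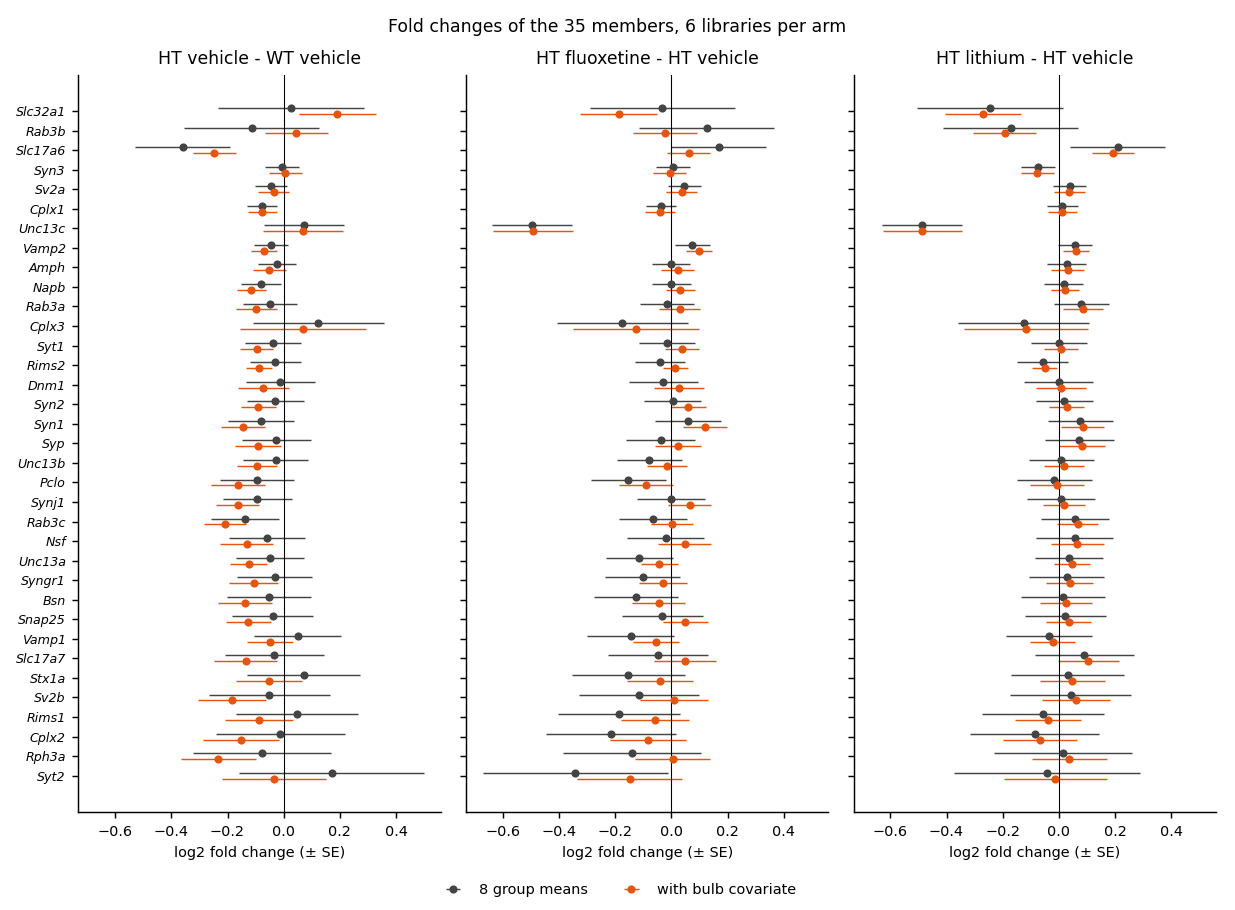
Log2 fold changes with SE of all 35 members for HT against WT vehicle, fluoxetine against vehicle and lithium against vehicle, from the fit of 8 group means (dark) and with the bulb score added (orange). No member was called in any panel, and Unc13c lies at -0.50 under fluoxetine and -0.49 under lithium.

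Between lithium and fluoxetine no member was called (4 of 16825 genes, 0.0238%), and none of them was among the 5.59% of genes with an unadjusted p below 0.05, with Unc13c at 548.9 ± 67.9 normalised counts under fluoxetine and 553.3 ± 80.4 under lithium (SD, n = 6). The smallest p-values there were for Syn3 (-0.08 ± 0.06, unadjusted p = 0.2), Rab3b (-0.30 ± 0.24) and Unc13a (0.15 ± 0.12). Fluoxetine against WT vehicle called 0 genes by limma (0%). Of the 737 genes (4.38%) with an unadjusted p below 0.05, 2 were members, Unc13c and Cplx1. Cplx1 measured 15855 ± 1209.5 in HT fluoxetine and 17152 ± 868 in WT vehicle (SD, n = 6), a log2 difference of -0.12 ± 0.05 (unadjusted p = 0.0473, limma adjusted p = 0.964). Pclo (-0.25 ± 0.13), Rab3c (-0.20 ± 0.12) and Unc13a (-0.16 ± 0.12) followed, and none was called. Lithium against WT vehicle called 0 genes (0%). Of the 431 (2.56%) with an unadjusted p below 0.05, 1 was a member, Unc13c, followed by Syn3 (-0.08 ± 0.06) and Cplx1 (-0.07 ± 0.05), which were not called. Between females and males over all arms 14 genes were called (0.0832%) and no member, and no member was among the 2.59% with an unadjusted p below 0.05. The smallest p was for Slc17a6 (male minus female -0.17 ± 0.12, unadjusted p = 0.179). Tests of whether a difference itself differed between the sexes called 0 genes by limma (0%) for genotype, fluoxetine and lithium. An unadjusted p below 0.05 was found for 2.17%, 1.07% and 1.63% of genes and for 0, 0 and 1 members. The lithium difference of Unc13c, male minus female, was -0.73 ± 0.28 on the log2 scale (unadjusted p = 0.0188, limma adjusted p = 0.998). Without the 4 libraries of highest Drd2 or Ttr, HT vehicle male 1 among them, it was -0.34 (unadjusted p = 0.207). In none of the 6 arm comparisons did the ranges of any member fail to overlap. Of all genes 0.101% lay wholly higher and 0.0892% wholly lower in HT than in WT vehicle. The same shares were 0.25% and 0.22% for fluoxetine and 0.0892% and 0.0773% for lithium against HT vehicle, and 0.232% and 0.0892% for lithium against fluoxetine. Against WT vehicle they were 0.155% and 0.0773% for fluoxetine and 0.155% and 0.0594% for lithium.

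Of 63 further genes of vesicle release and recycling (calcium channels, other SNAREs and synaptotagmins, endocytic adaptors and monoamine transporters), 62 were tested. None was called for genotype, fluoxetine or lithium. For HT against WT vehicle 12 were above and 50 below 0 (48.7% of all genes above), with a median of -0.048 (log2). The smallest p there was for Lin7a (-0.12 ± 0.05, unadjusted p = 0.0255), a scaffold of the presynaptic membrane. For fluoxetine 26 were above and 36 below 0, and for lithium 48 and 14 (49.5% of all genes above 0 in each). These splits are given only for the fit of all libraries without the bulb score. For the members, the genotype split turned over without the 6 bulb-rich libraries, and the lithium split with a batch term. The splits of the further genes are therefore not read as a shift of that list. Against the bulb score 47 of 62 were called, 40 falling and 7 rising. Over all genes 50.7% were called, 25.5% falling and 25.2% rising. Without the 6 bulb-rich libraries 5 of the 62 were called, against 6.23% of all genes. The 7 risers over all libraries included the vesicular monoamine transporter Slc18a2 (0.55 ± 0.04 per unit of score). Rab27b (-0.11), Cadps2 (-0.13) and the calcium channel subunit Cacna1a (-0.05) fell.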

How the data were processed

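Prefrontal cortex RNA of 24 libraries was prepared with a stranded TruSeq mRNA kit, per the labels' protocols. The submitters' processing notes name Salmon 0.11.2, R 3.6.0, DESeq2 1.19.11 and GRCm38 without saying what each was used for, and the strand setting of the counting is not given in the sources used here. The deposited values are a signal, read counts divided by a size factor per library by the authors, as the values show: dividing each library by what 1 read is worth gave whole reads (within 0.01) for 100% of values. Of 18240 genes, 18227 matched the GENCODE annotation of GRCm38. Values were tested as log2(value + 1) with limma 3.58.1 (R 4.3.3), with a trend, genes with a mean of at least 10, 8 group means, sexes weighted equally and Benjamini-Hochberg adjustment over all genes tested. All 35 members passed the filter. The design had expected normalised values, so limma was the main test. As alternatives, edgeR 4.0.16 and DESeq2 1.42.0 were run on the recovered reads. The bulb score was added as a covariate, with its 3 genes left out of the counts. In each comparison, members called and up to 5 with the smallest p are described. Of the further release genes, those called or else the 3 with the smallest p were eligible to be named. Members and lists were chosen with earlier results of these data known. Other alternatives were TMM scaling, pseudocounts of 0.5 and 5, other filters, batch terms, a replicate block and leaving out libraries. Only the limma and edgeR fits, for the genotype comparison and the bulb slope, were tried on simulated counts, and the outcome is not given here.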

Additional observations from a re-analysis of the deposited data

Results flagged for a closer look

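Within an arm of 6 libraries, the highest or lowest value of a member was compared with its neighbour by Dixon's ratio at the 95% level. For independent values about 1 in 20 would pass by chance, but the members vary together in the same libraries. Of 140 combinations of member and arm 26 passed, a count that cannot be held against that rate. HT lithium male 1, a library with a bulb score of 11.92, gave 18 of them. It was the lowest lithium library for Syt2 (446.33 normalised counts), Stx1a (5293.97), Vamp1 (2126.27), Syn1 (12520) and Syn2 (11051.8). The same held for Syp (28645.7), Sv2b (11052.9), Bsn (12525.1), Pclo (7842.81), Unc13a (12065.4) and Cplx2 (15442.8). It was also lowest for Nsf (18773.8), Rab3a (12404.3), Slc17a7 (28912.3), Syngr1 (14561.5), Dnm1 (27164.2) and Rph3a (7097.89), and highest for Slc17a6 (641.6). WT vehicle female 2, with a bulb score of 11.97, was the lowest WT library for 7 members. These were Stx1a (5671.01), Syp (30431.7), Rims1 (5004.82), Cplx2 (19966.9), Rab3c (11363.3), Slc17a7 (31306.3) and Syngr1 (15891.8). HT vehicle male 1 was the highest HT vehicle library for Unc13c (1321.67), and it held the highest Drd2 of all libraries.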

How the results depend on the processing

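No member was called in any arm or sex comparison under any alternative run, and 30 of 35 members were called against the bulb score with edgeR, DESeq2 and the replicate block. Leaving out single libraries gave 28 to 30 called members for the bulb score, beside 7122 to 8988 called among the 16822 genes tested. Without the 6 libraries of highest bulb score, chosen after seeing the data, 7 members were called, and the slopes of Dnm1 (0.00184), Rab3a (0.00394) and Amph (0.00952) turned positive, none of them called, as did those of Cplx3 (0.051) and Unc13c (0.017), which were not called in either fit; that fit has fewer libraries and a narrower range of scores. The members' median difference between the sexes in the genotype effect was -0.125 (log2) and became 0.0494 with the bulb score and 0.0555 with the linear score, and the cause was not tested. Replicate numbers showed no clear pairing of the libraries. The correlation of same-numbered deviations had a median of -0.0577 over 36 pairs, with 12 above 0.1. For libraries with other numbers it was 0.0188 over 72 pairs, with 30 above 0.1. Same-numbered pairs ran from -0.695 to 0.724, so this check cannot exclude a weak pairing. With the replicate block 0 members were called in the arm comparisons and 30 for the bulb score. The median SE of a member in an arm comparison was 0.133 (log2), and the part of counting error in it was not measured. Reads of 10 members (Syt2, Vamp1, Syn1, Syn2, Syn3, Sv2b, Unc13a, Rab3a, Syngr1 and Dnm1) could include those of a measured gene on the other strand that overlaps them. On the same strand, measured genes overlap Pclo (Gm43662 and Gm43665) and Rph3a (Gm42656).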
